A study of Homo sapiens with 6 samples.

Results

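The long noncoding RNAs and snoRNA-linked transcripts of LNCaP cells were taken as the genes whose symbol starts with LINC, SNHG, SNORD, SNORA or SCARNA, or ends with -AS1, -AS2, -DT or -IT1, together with 9 noncoding RNAs chosen by name. Only probe sets for which the platform annotation lists 1 gene symbol were used, which gave 310 of the 18239 genes measured, read by 442 of 45253 probe sets. RefSeq classes 246 of these genes as lncRNA, 60 as snoRNA and 4 as other ncRNA. Of the 9 chosen by name, MALAT1 is the 1 gene with a probe set of its own here, and PCA3, PCGEM1, PCAT1, DRAIC, NEAT1, GAS5, H19 and MEG3 were not analysed here. By symbol the genes fall into 64 small nucleolar or Cajal body RNAs (12 SNORD, 48 SNORA and 4 SCARNA), 10 snoRNA host genes (SNHG), 92 antisense lncRNAs, 21 divergent or intronic lncRNAs (16 -DT and 5 -IT1), 122 intergenic lncRNAs (LINC) and MALAT1.

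LNCaP is a human line derived from a prostate cancer metastasis, and every sample is this 1 line, grown in F12 medium with foetal bovine serum. The 3 control arrays are called untreated in the titles and saline-treated in the treatment protocol. The other 3 arrays are of cells exposed for 24 h to 40 µM urolithin A, a compound that gut bacteria form from ellagitannins. Total RNA was hybridised to the Affymetrix Human Genome U219 array, and the labels leave unsaid if replicates were grown apart. The p-values then measure only the scatter among these 6 arrays, and that scatter may be technical. The question the comparison answers is which transcripts differ after 24 h of urolithin A.

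Small nucleolar RNAs work in the nucleolus as guides: those with H/ACA boxes (SNORA) direct the conversion of uridine to pseudouridine and those with C/D boxes (SNORD) direct ribose methylation, mostly on ribosomal RNA. Most human snoRNAs are not transcribed from genes of their own but are cut from introns of host genes, many of which code for ribosomal and nucleolar proteins or are SNHG transcripts whose spliced RNA is not translated into a known protein. Many long noncoding RNAs, though not all, are spliced and polyadenylated. Antisense ones are read from the strand opposite a coding gene, and divergent ones start near a coding gene's promoter and run away from it.

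The deposited values are on a log2 scale and each probe set is centred on the median of the 3 control arrays, which is 0 for all 49386 probe sets. A value therefore says how far an array lies from the middle control and gives no level, so the labelled cell line could not be checked against prostate markers and 1 RNA cannot be called more abundant than another. In these cultures measured in bulk, fewer cells making an RNA and less of it per cell cannot be told apart. The middle value over all genes lay between -0.0002 and 0.0186 on the 3 urolithin A arrays, and no pair of arrays was identical. Control probe sets for 18S ribosomal RNA averaged -0.454 on control replicate 3 and -0.48 on urolithin A replicate 3, against 0.047 and 0.015 on the other two controls and 0.034 and -0.217 on the other two urolithin A arrays; those 2 low arrays lie 1 in each group. A 28S ribosomal RNA probe set read 0.191, 0.00 and -0.283 on the controls and -0.25, -0.294 and -0.502 on the urolithin A arrays, so it was lower on average after urolithin A, with 1 control below 1 urolithin A array. The part of either in the results was not tested. A gene was called when its adjusted p (limma's moderated test with Benjamini-Hochberg adjustment over all 18239 genes) was under 0.05.

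After urolithin A, 13 of the 310 noncoding genes were called, 8 higher and 5 lower, which is 4.19% against 10.2% of all genes tested. By direction the background was 4.85% of all genes higher and 5.31% lower. SNORD72 rose 2.56-fold, the antisense RNAs SLC9A3-AS1 and LIPT2-AS1 rose 1.59-fold and 1.41-fold, and the H/ACA snoRNAs SNORA6, SNORA84, SNORA3A and SNORA72 fell. A snoRNA name stands here and below for the probe sets listed under that symbol. Which RNA they detect, the snoRNA itself or a longer RNA of its containing gene, was not tested. SNORD72 was the 1 noncoding gene that moved by 2-fold or more, and it ranked 7 from the top among the changes of all 18239 genes. All 3 urolithin A arrays lay outside the range of the controls, on one side, for 45 of the 310 genes (14.5%: 27 above and 18 below), against 29.3% of all genes. The middle change was 0.01 on the log2 scale for the noncoding genes and for all genes alike, and the middle size of change regardless of sign was 0.092 and 0.1.

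The noncoding genes also differ from the rest in how they were read. They spread more between arrays of a group, with a middle residual SD of 0.124 on the log2 scale against 0.0998 for all genes, and 210 of the 310 rest on a single probe set. Among genes with 1 probe set, 3.81% of the noncoding genes and 8.27% of all genes were called; among genes with several, 5.0% and 11.2%. The part of these differences in the lower share of calls was not tested.

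**Figure D1:**
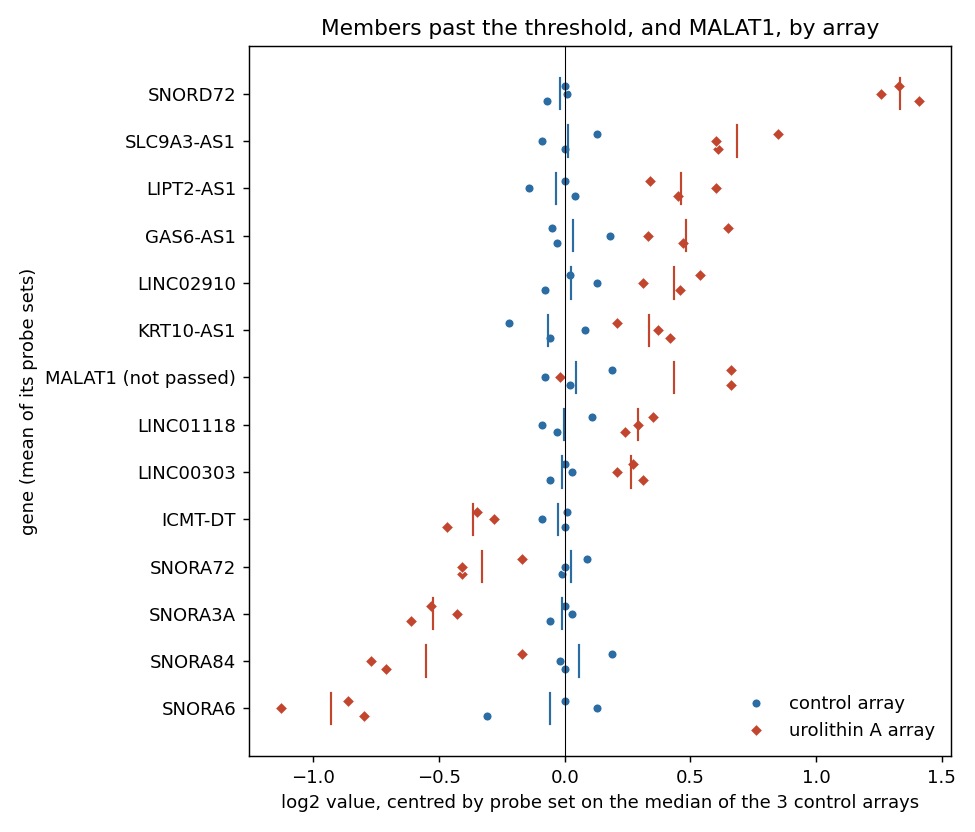
Value of each of the 13 called noncoding genes and of MALAT1 on every array, on the log2 scale and centred by probe set on the control median; circles are the 3 control arrays, diamonds the 3 urolithin A arrays, and short vertical lines the group means. SNORD72 lies between 1.26 and 1.41 on the urolithin A arrays, away from all other values shown, and MALAT1 has 1 urolithin A array inside the control range.

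Among the C/D-box snoRNAs, SNORD72 was the 1 of 12 that was called, or 8.33% against 10.2% of all genes. SNORD72 is encoded within RPL37, which codes for a protein of the large ribosomal subunit. Its single probe set read -0.07, 0.01 and 0.00 on the control arrays and 1.41, 1.26 and 1.33 on the urolithin A arrays. The lowest urolithin A array stood far above the highest control, and the 3 arrays within each group lay close together. The change was 1.35 on the log2 scale (SE 0.07, n = 3 per group, limma adjusted p = 0.000111). It was called in each of the 6 fits that left out 1 array, with changes of 1.32 to 1.39 and a highest adjusted p of 0.00113.

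RPL37 itself has 5 probe sets, and they did not move alike. One of them read -0.13, 0.00 and 0.15 on the control arrays and 0.89, 1.04 and 1.03 on the urolithin A arrays, a change of 0.98 (SE 0.10, limma adjusted p over all probe sets 0.0011). This is the RPL37 probe set whose shift came nearest to that of SNORD72, and its 2 groups do not overlap. The others changed by 0.43, 0.32, 0.04 and -0.01, and a sixth probe set, listed for RPL37 and SNORD72 together, read 0.00, -0.02 and 0.00 on the controls and -0.01, 0.01 and -0.03 on the urolithin A arrays. Within 1 locus, then, probe sets rose by 1.35, by 0.98 and by 0.43 (adjusted p = 0.0439 for the last), 1 gave 0.32 with overlapping arrays, and 3 lay between -0.01 and 0.04. As the mean of its 5 probe sets RPL37 was called higher (0.35, SE 0.07, adjusted p = 0.0195), but the call was lost when the median of the probe sets was used (adjusted p = 0.108) and without control replicate 1 or 2 or urolithin A replicate 1 or 3 (highest adjusted p = 0.0711). Which RNA each of these probe sets detects, spliced message, intron or snoRNA, was not tested.

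**Figure D2:**
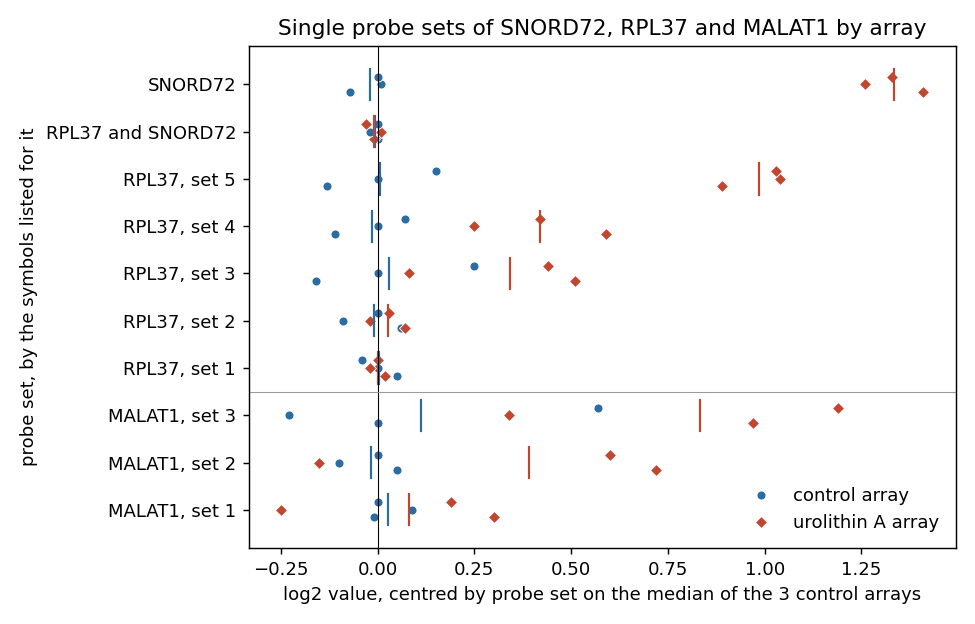
Single probe sets listed for SNORD72, for RPL37 and SNORD72 together, for RPL37 and for MALAT1, with their centred log2 value on each of the 3 control arrays (circles) and 3 urolithin A arrays (diamonds); short vertical lines are group means. The SNORD72 probe set (change 1.35) and 1 RPL37 probe set (0.98) stand apart from the joint probe set and from 2 other RPL37 probe sets, which stay near 0, and the 3 MALAT1 probe sets change by 0.05, 0.41 and 0.72.

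The other C/D-box snoRNAs were not called. SNORD17, within the sorting nexin gene SNX5, had the largest difference among them: -0.61, 0.00 and 0.13 on the controls and -1.15, -0.93 and -0.39 on the urolithin A arrays. Control replicate 1 lay below urolithin A replicate 3, so the groups overlap, and the difference of -0.66 was not called (SE 0.23, limma adjusted p = 0.115), though it was in the fits without control replicate 1 and without urolithin A replicate 3 (lowest adjusted p = 0.0427). SNX5, as the mean of 4 probe sets that gave 0.03, -0.29, -0.19 and -0.57, fell by 0.25 (adjusted p = 0.0323), a call lost without any 1 of the 6 arrays (highest adjusted p = 0.0921). SNORD16, within RPL4, read -0.79, -0.21 and 0.08 on the urolithin A arrays, 1 of them inside the control range.

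Of the 48 H/ACA snoRNAs, 4 fell and 0 rose by limma, with 7 lower and 1 higher at an unadjusted p under 0.05. The called share was 8.33%, below the 10.2% of all genes, and 8.33% called lower stands against 5.31% of all genes. At an unadjusted p under 0.05 it was 16.7% against 24.1%. SNORA6 fell furthest: the controls read -0.31, 0.13 and 0.00 and the urolithin A arrays -0.80, -1.13 and -0.86. Every urolithin A array was below the lowest control, by more than the spread of either group. The fall was 1.83-fold (log2 -0.87, SE 0.13, limma adjusted p = 0.00472). Its containing gene RPSA, which codes for a protein of the small ribosomal subunit, was not analysed here. The call held in all 6 fits that left out 1 array (highest adjusted p = 0.019).

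SNORA3A, within the large-subunit protein gene RPL27A, read -0.06, 0.03 and 0.00 on the controls and -0.61, -0.43 and -0.53 on the urolithin A arrays. The groups are well separated, at a change of -0.51 (SE 0.07, limma adjusted p = 0.00374), and the call held without each array in turn (highest adjusted p = 0.0195). This tightness comes from averaging 2 probe sets that spread in opposite ways on control replicate 1, one at 0.38 and the other, of a kind marked as sharing sequence with other transcripts, at -0.51. Alone they gave -0.61 (adjusted p = 0.0468) and -0.41 (adjusted p = 0.159). SNORA3B lies in the same gene and gave 0.04 (adjusted p = 0.841), while RPL27A gave -0.26 (adjusted p = 0.151) with its 3 urolithin A arrays at -0.46, -0.07 and -0.21, all below the controls.

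SNORA84, within IARS1, the gene of a tRNA synthetase for isoleucine, read 0.00, -0.02 and 0.19 on the controls and -0.71, -0.77 and -0.17 on the urolithin A arrays. Urolithin A replicate 3 fell least and still lay below the lowest control. The fall was 1.52-fold (log2 -0.60, SE 0.15, limma adjusted p = 0.0379), and IARS1 gave -0.05 (adjusted p = 0.827) with overlapping arrays. SNORA72, within the large-subunit protein gene RPL30, read -0.01, 0.00 and 0.09 on the controls and -0.41, -0.41 and -0.17 on the urolithin A arrays. It showed the same order, with replicate 3 nearest the controls, at a change of -0.36 (SE 0.08, adjusted p = 0.0306), against 0.04 for RPL30 (adjusted p = 0.756). The single probe set of SNORA72 is of a kind marked as sharing sequence with other transcripts. Both snoRNA calls rest on the full set of arrays: each was lost without any 1 of the 3 controls and without urolithin A replicate 1 or 2, and reached adjusted p = 0.12 for SNORA84 and 0.0985 for SNORA72 without urolithin A replicate 1.

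That order of arrays was shared by 3 uncalled snoRNAs picked after their values were seen. How many other snoRNAs share it was not counted. SNORA10, within RPS2, read 0.00, -0.07 and 0.48 on the controls and -0.50, -0.62 and -0.19 on the urolithin A arrays, with no overlap (change -0.57, limma adjusted p = 0.0545). SNORA14B read -0.46, -0.41 and 0.05 on the urolithin A arrays, and SCARNA9L, a Cajal body RNA, -0.30, -0.23 and 0.07. In these 3 and in SNORA84 and SNORA72, replicate 3 is the highest array in each group, and replicate 3 is also the array of each group with the lowest 18S signal; the part of that in these values was not tested. Without the low-18S array of each group, 7 of the 13 calls were kept, SNORD72, SNORA6, SNORA84, SNORA3A, SNORA72, SLC9A3-AS1 and LIPT2-AS1. In that fit 4 other genes were called that had not been, SNORA10 (-0.53, adjusted p = 0.026), SNORA14B (-0.43, adjusted p = 0.037), ZNF407-AS1 and TMEM254-AS1. SNORA10 and SNORA14B were also called without urolithin A replicate 3 alone (adjusted p = 0.0394 and 0.0231). SNORA37 was the highest uncalled snoRNA at 0.30 (adjusted p = 0.0803). As a group the 64 small RNAs had a middle change of -0.03, 36 below 0 and 28 above, and 7.81% were called, again below the share of all genes.

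**Figure D3:**
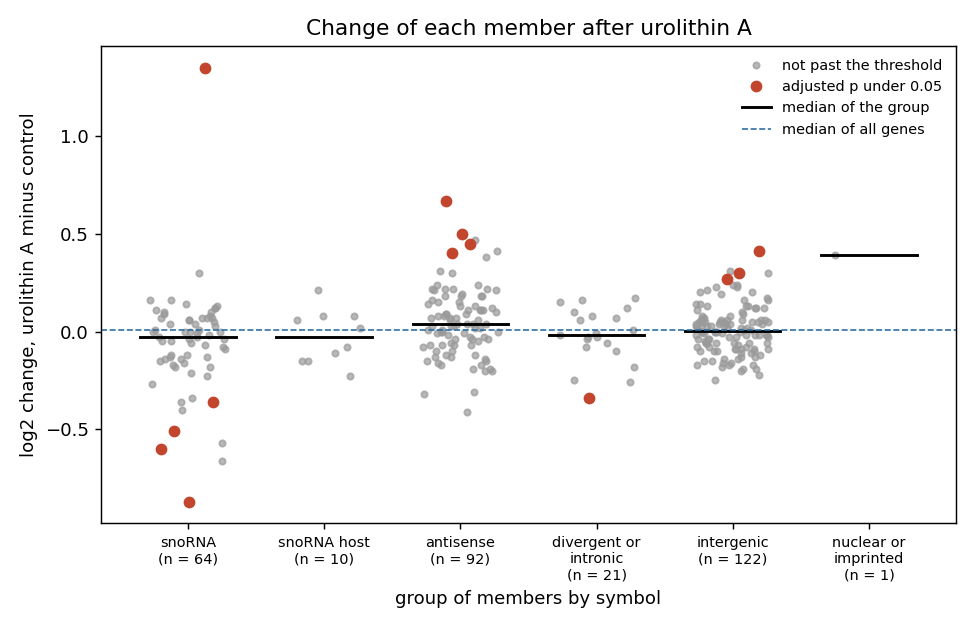
Change of each of the 310 noncoding genes (urolithin A minus control, log2 scale) by group, each point 1 gene with random sideways spread; red points have an adjusted p under 0.05, black bars are group medians and the dashed line is the median of all genes. The called snoRNAs lie on both sides of 0 with 4 of 5 below, while the 4 called antisense and 3 called intergenic RNAs are all above.

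Each snoRNA was set beside the gene that contains it in RefSeq, by position alone. Whether a probe set listed for a snoRNA reads RNA of the containing gene was not tested. That gave 60 pairs of 59 snoRNAs with 52 measured containing genes, and 5 snoRNAs had none. The 2 changes had the same sign in 29 of the 60 pairs. Pearson's r over the pairs was 0.24 and fell to 0.07 without SNORD72, a description over genes that share the same 6 arrays. Among the 52 containing genes 7 were called, 2 higher and 5 lower, or 13.5% against 10.2% of all genes, and in 1 pair, SNORD72 with RPL37, both were called. Fallen containing genes with an uncalled snoRNA included TIPIN, a replication fork protein (-0.36, limma adjusted p = 0.0109), against 0.07 for SCARNA14, and ZBED3 (-0.32, adjusted p = 0.018) against -0.13 for SNORA47. DKC1, the pseudouridine synthase of the H/ACA particle, fell by 0.25 (adjusted p = 0.0479), and SNORA56 within it gave 0.08 (adjusted p = 0.907). SNORA56 ran from -0.25 to 0.25 when 1 array was left out, too wide to set against DKC1. EIF1AX, a translation initiation factor, rose by 0.34 (adjusted p = 0.0482) against -0.23 for SCARNA9L. Of these 4 genes TIPIN kept its call without each array in turn. It lost the call with only probe sets that carry no suffix of shared sequence (-0.25, limma adjusted p = 0.323) and without the low-18S array of each group (0.0591). ZBED3 lost its call without control replicate 1 or 3 or urolithin A replicate 1 or 2 (highest adjusted p = 0.0645), and DKC1 and EIF1AX without any 1 of the 6 (0.133 and 0.145). For the 11 snoRNAs in 9 measured genes of ribosomal proteins, the middle change was -0.18 against 0.02 for those genes. Of the 11 snoRNAs 3 were called, SNORD72 higher and SNORA3A and SNORA72 lower, and 1 of the 9 genes, RPL37. Among all genes 10.2% were called, and with so few snoRNAs the set was not tested against that share.

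**Figure D4:**
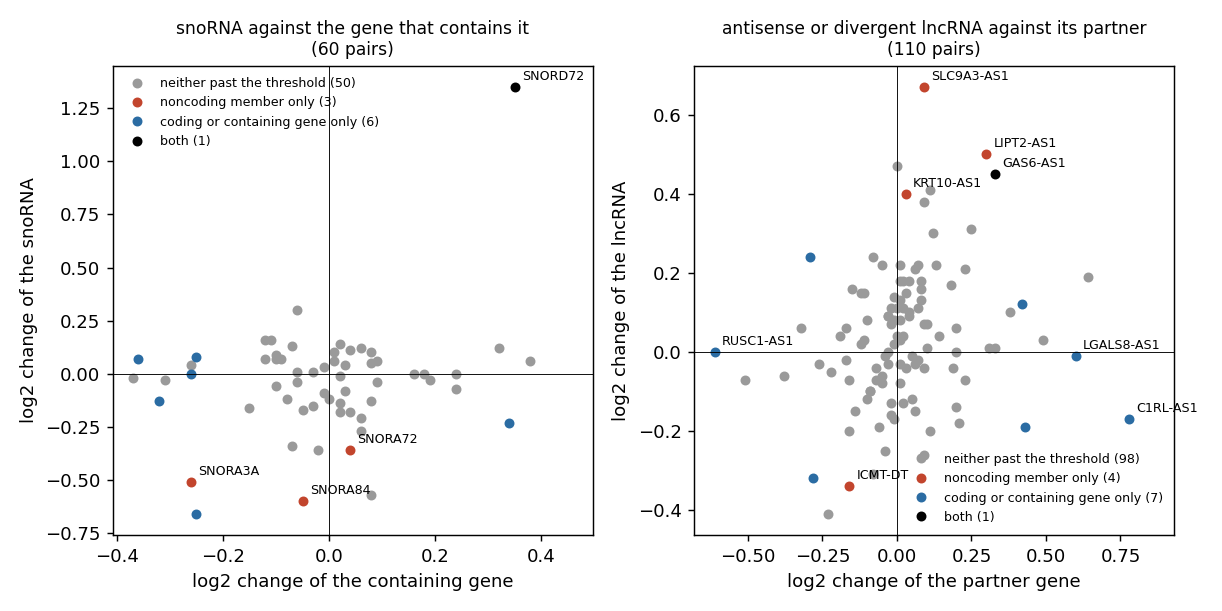
Left, change of each snoRNA against that of the gene containing it (60 pairs); right, change of each antisense, divergent or intronic lncRNA against its partner gene (110 pairs), all on the log2 scale as urolithin A minus control. Colours show which of the pair passed an adjusted p of 0.05: 1 pair in each panel has both called, SNORD72 with RPL37 and GAS6-AS1 with GAS6.

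The SNHG genes, which carry snoRNAs in their introns, were not called: 0 of 10 by limma, against 10.2% of all genes. At an unadjusted p under 0.05 was 1 of them, or 10.0% against 24.1% of all genes. Their changes ran from -0.23 to 0.21. SNHG1 read -0.33, 0.00 and 0.03 on the controls and -0.42, -0.47 and -0.11 on the urolithin A arrays, with overlap (change -0.23, adjusted p = 0.303). SNHG32 read -0.01, 0.00 and 0.22 on the controls and 0.23, 0.23 and 0.40 on the urolithin A arrays, just clear of the highest control, and was not called (0.21, adjusted p = 0.171).

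Proteins that build and carry snoRNA particles were set beside the snoRNAs. Of 21 listed and measured, NOLC1, RRP9, NOP56 and DKC1 fell, ZNHIT3 rose and 16 were not called; 23.8% were called against 10.2% of all genes. The changes were below 0 for 19 of the 21, against 46.9% of all genes, with a middle change of -0.10 against 0.01. NOP56, a core protein of the C/D-box particle, read -0.01, 0.04 and -0.04 on the controls and -0.35, -0.25 and -0.31 on the urolithin A arrays (change -0.30, limma adjusted p = 0.0216). The 2 groups were tight and apart. NOLC1, a nucleolar and Cajal body phosphoprotein that binds both kinds of particle, fell by 0.34 (adjusted p = 0.0121), and RRP9, a protein of the U3 snoRNA particle, fell by 0.43 (adjusted p = 0.0194). ZNHIT3, an assembly factor of the C/D-box particle, rose by 0.28 (adjusted p = 0.0262). These calls are near the threshold: NOLC1 kept its call without each array in turn, RRP9 lost it without control replicate 1 or 3 or urolithin A replicate 1 (highest adjusted p = 0.0715), NOP56 without control replicate 1 or 2 or urolithin A replicate 1 or 3 (0.0778), and ZNHIT3 and DKC1 without any 1 of the 6 (0.0883 and 0.133).

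Of the 92 antisense RNAs, 4 rose and 0 fell by limma, with 13 higher and 4 lower at an unadjusted p under 0.05. The 4.35% that rose is near the 4.85% of all genes called higher, and 18.5% at an unadjusted p under 0.05 is below the 24.1% of all genes. The changes were above 0 for 62.0% of the antisense RNAs and 53.1% of all genes, with a middle change of 0.04 against 0.01. SLC9A3-AS1 lies opposite SLC9A3, the gene of a sodium-proton exchanger of epithelia. It read 0.00, -0.09 and 0.13 on the controls and 0.61, 0.60 and 0.85 on the urolithin A arrays. No urolithin A array came near the controls, and the rise was 1.59-fold (log2 0.67, SE 0.09, limma adjusted p = 0.00374). SLC9A3 gave 0.09 (adjusted p = 0.675) with overlapping arrays, and its listed start is 51213 bases from that of SLC9A3-AS1.

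LIPT2-AS1 is read from the strand opposite LIPT2, whose enzyme attaches the octanoyl group from which lipoic acid is made in mitochondria. The controls read 0.04, -0.14 and 0.00 and the urolithin A arrays 0.45, 0.60 and 0.34, without overlap. The rise was 1.41-fold (log2 0.50, SE 0.09, limma adjusted p = 0.00996). LIPT2 read 0.31, 0.21 and 0.17 on the urolithin A arrays, each above the highest control of 0.12, and was not called (0.30, adjusted p = 0.138). The listed starts of the pair are 344 bases apart, with that of LIPT2-AS1 downstream of that of LIPT2. SLC9A3-AS1 and LIPT2-AS1 kept their calls without each array in turn, with highest adjusted p-values of 0.0182 and 0.0396.

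GAS6-AS1 rose together with GAS6, which codes for a ligand of the TAM receptor kinases. The antisense RNA read -0.03, 0.18 and -0.05 on the controls and 0.47, 0.33 and 0.65 on the urolithin A arrays (0.45, SE 0.10, limma adjusted p = 0.0266). GAS6 read 0.10, -0.06 and 0.04 on the controls and 0.42, 0.36 and 0.30 on the urolithin A arrays (0.33, adjusted p = 0.0211). Neither gene's groups overlap, and this was the 1 pair of 110 in which both genes were called. The 2 probe sets of GAS6-AS1 gave 0.72 (adjusted p = 0.0111) and 0.19 (adjusted p = 0.333). Those of GAS6, also 2, gave 0.35 (limma adjusted p over all probe sets 0.0793) and 0.31 (0.132), so neither was called alone. Both GAS6 probe sets are of a kind marked as sharing sequence with other transcripts.

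KRT10-AS1, opposite the keratin gene KRT10, read -0.06, 0.08 and -0.22 on the controls and 0.42, 0.37 and 0.21 on the urolithin A arrays (0.40, SE 0.09, limma adjusted p = 0.032). Its 2 probe sets gave 0.17 and 0.63, neither called alone, and KRT10 gave 0.03 (adjusted p = 0.852). GAS6-AS1 lost its call without control replicate 1 or 3 or urolithin A replicate 1 or 3 (highest adjusted p = 0.0894), GAS6 without control replicate 2 or 3 or urolithin A replicate 1 or 2 (0.0757), and KRT10-AS1 without control replicate 1 or 3 or urolithin A replicate 1 or 2 (0.103). The largest differences among uncalled antisense RNAs were ZNF407-AS1 at 0.47 (adjusted p = 0.107), SMAD5-AS1 at 0.41 (0.211) and H1-10-AS1 at -0.41 (0.15); ERCC6L2-AS1, at 0.31, missed the threshold at 0.0572. ZNF407-AS1 was called without urolithin A replicate 3 (0.67, adjusted p = 0.0062).

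Of the 21 divergent or intronic RNAs 1 was called, or 4.76% against 10.2% of all genes. This was ICMT-DT, a divergent RNA that starts beside ICMT, the gene of the methyltransferase that finishes prenylated proteins such as Ras. It read 0.00, -0.09 and 0.01 on the controls and -0.47, -0.28 and -0.35 on the urolithin A arrays. All 3 lay below the controls, at a change of -0.34 (SE 0.07, limma adjusted p = 0.0243), while ICMT gave -0.16 (adjusted p = 0.275) with overlap. The 2 probe sets of ICMT did not move alike. One gave -0.31 with all 3 urolithin A arrays below the controls (limma adjusted p over all probe sets 0.09), and the other gave -0.02 (0.96). The listed starts are 276 bases apart, head to head. EPB41L4A-DT was next, at -0.26, -0.26 and -0.28 on the urolithin A arrays (change -0.26, adjusted p = 0.0669). ICMT-DT lost its call without control replicate 1 or 3 or urolithin A replicate 1 or 3 (highest adjusted p = 0.0796). Its single probe set is of a kind marked as sharing sequence with other transcripts.

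The promoter windows of SLC9A3-AS1, LIPT2-AS1 and ICMT-DT are shown because, of the called antisense and divergent RNAs, theirs hold a motif that was searched for. They were picked after the search: KRT10-AS1 has 2 windows in the table with none of the motifs, and GAS6-AS1 was not found in it. Each is the RefSeq window on GRCh38.p14 of 300 bases, 250 before the listed start and 50 after, printed 5′ to 3′ on the RNA's own strand. Capitals mark GCGTG, the core of the xenobiotic response element bound by the aryl hydrocarbon receptor, in either orientation (CACGC on the printed strand), and in LIPT2-AS1 also TGACNNNGC, the antioxidant response element core, in reverse. No marked base belongs to both motifs.
SLC9A3-AS1, chr5:472986-473285, + strand: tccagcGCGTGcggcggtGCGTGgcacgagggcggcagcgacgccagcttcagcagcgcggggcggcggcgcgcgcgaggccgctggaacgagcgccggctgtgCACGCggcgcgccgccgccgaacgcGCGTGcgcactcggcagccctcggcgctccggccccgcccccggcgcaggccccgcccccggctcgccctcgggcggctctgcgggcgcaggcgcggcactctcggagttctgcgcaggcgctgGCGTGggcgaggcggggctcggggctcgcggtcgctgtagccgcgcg
LIPT2-AS1, chr11:74493130-74493429, + strand: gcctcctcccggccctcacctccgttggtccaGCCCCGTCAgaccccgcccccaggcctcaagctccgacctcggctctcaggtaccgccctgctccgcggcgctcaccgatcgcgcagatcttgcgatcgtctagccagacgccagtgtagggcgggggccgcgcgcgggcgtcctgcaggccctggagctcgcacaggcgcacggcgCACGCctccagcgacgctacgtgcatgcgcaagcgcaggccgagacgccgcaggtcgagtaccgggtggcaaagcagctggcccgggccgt
ICMT-DT, chr1:6235990-6236289, + strand: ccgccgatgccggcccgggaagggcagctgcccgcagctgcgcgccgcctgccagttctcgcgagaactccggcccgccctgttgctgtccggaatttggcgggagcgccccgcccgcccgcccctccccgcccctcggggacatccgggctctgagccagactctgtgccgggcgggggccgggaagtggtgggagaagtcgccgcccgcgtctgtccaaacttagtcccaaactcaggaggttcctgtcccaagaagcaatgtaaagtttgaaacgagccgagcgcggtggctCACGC

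The table of RefSeq promoters held 187 of the 310 genes, 7 of the 13 called ones and none of the snoRNAs. GCGTG on either strand was found in 44.2% of the 215 windows of noncoding genes and in 36.5% of all 35116 windows. It was in 4 of the 8 windows of called genes, those of SLC9A3-AS1, with 5 copies, LIPT2-AS1, ICMT-DT and LINC01118. TGACNNNGC was in 16.3% and 13.3%, and among called genes in LIPT2-AS1. CACGTG, the E-box, was in 7.44% and 7.26%, AGAACA, the androgen receptor half-site, in 16.3% and 14.8%, and TGACGTCA, the cAMP response element, in 0.465% and 1.85%; none of these was in a window of a called gene, nor was the p53 response element, found in 0.094% of all windows. GCGTG is short and rich in G and C, and the 3 printed windows are 69.7% to 82.3% G and C, so a match is a description of letters only.

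Across all antisense, divergent and intronic RNAs, 110 pairs with 108 measured partner genes were compared. The 2 changes had the same sign in 70 pairs, with Pearson's r of 0.19 and Spearman's rho of 0.26 over pairs that share the same arrays. In 25 pairs the starts lay head to head within 500 bases, and r was 0.09 there, with 15 of the same sign; in 41 pairs the lncRNA started inside the partner's side of its start, and r was 0.08. In the 38 pairs for which no pair of listed starts was at hand r was 0.41.

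Partner genes were also called in pairs whose lncRNA was not. RUSC1, whose start lies 92 bases from that of RUSC1-AS1, head to head, read 0.17, -0.06 and 0.00 on the controls and -0.57, -0.48 and -0.66 on the urolithin A arrays (change -0.61, limma adjusted p = 0.00361). RUSC1-AS1 gave 0.00 (adjusted p = 0.986). C1RL, a complement C1r-like protease, rose by 0.78 (adjusted p = 0.00472) and LGALS8, galectin-8, by 0.60 (adjusted p = 0.00468), against -0.17 for C1RL-AS1 and -0.01 for LGALS8-AS1, neither called. CYP51A1, the lanosterol demethylase of cholesterol synthesis, fell by 0.29 (adjusted p = 0.0212), while CYP51A1-AS1 read -0.26, 0.93 and 0.07 on the urolithin A arrays, with 1 array below and 1 above all 3 controls. With only probe sets that carry no suffix of shared sequence, CYP51A1 gave -0.57 (limma adjusted p = 0.00788) and LGALS8 1.4 (0.000767). The changes given for these genes thus average probe sets that did not move alike. WDFY3, an autophagy scaffold, and ANKRD13C rose by 0.43 and 0.42 (adjusted p = 0.0326 and 0.0391). WDFY3-AS2 gave -0.19 and ANKRD13C-DT 0.12, neither called (adjusted p = 0.282 and 0.425). MBNL1, a splicing regulator, fell by 0.28 (0.0361). MBNL1-AS1 gave -0.32, in the same direction, and was not called (0.123), though it was without control replicate 3 (0.0499). In total, 8 of the 108 partners were called, 7.41% against 10.2% of all genes. RUSC1, C1RL and LGALS8 kept their calls without each array in turn. CYP51A1 and ANKRD13C lost theirs in all such fits but that without urolithin A replicate 3 (highest adjusted p = 0.0737 and 0.118), WDFY3 in all but that without urolithin A replicate 2 (0.098) and MBNL1 in all but that without control replicate 1 (0.116).

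Of the 122 intergenic RNAs, 3 rose and 0 fell by limma, or 2.46% called against 10.2% of all genes. At an unadjusted p under 0.05 were 9 higher and 2 lower, or 9.02% against 24.1% of all genes. Changes ran from -0.25 to 0.41. LINC02910 read -0.08, 0.13 and 0.02 on the controls and 0.46, 0.31 and 0.54 on the urolithin A arrays (0.41, SE 0.09, adjusted p = 0.0195). Its 3 probe sets gave 0.48, 0.40 and 0.36, the most even set among the called genes with several. LINC01118 read -0.03, -0.09 and 0.11 against 0.24, 0.29 and 0.35 (0.30, SE 0.08, limma adjusted p = 0.0419), with probe sets at 0.13 and 0.47. LINC00303 read -0.06, 0.03 and 0.00 against 0.31, 0.21 and 0.27 (0.27, SE 0.06, adjusted p = 0.033). In all 3 the groups are separate, but the steps are at most 1.33-fold and the calls fragile. LINC00303 lost its call without any 1 of the 6 arrays (highest adjusted p = 0.107), LINC01118 without any 1 except control replicate 3 (0.136), and LINC02910 without control replicate 1 or 3 or urolithin A replicate 1 or 3 (0.0704). Close below the threshold stood LINC03124, at 0.01, 0.00 and 0.00 on the controls and 0.45, 0.15 and 0.31 on the urolithin A arrays (0.30, adjusted p = 0.0577, and 0.0328 without urolithin A replicate 2), and LINC02447 gave 0.31 with overlap (0.224).

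Besides the 13 called genes, 32 had all 3 urolithin A arrays beyond the controls, 19 above and 13 below, with adjusted p-values from 0.0545 to 0.558. With the called genes these make 45 of the 310, or 14.5%, below the 29.3% of all genes. The uncalled 32 are listed as a description only. By group the 32 were 12 antisense, 15 intergenic, 2 divergent RNAs, 2 snoRNAs and SNHG32. Nearest to the threshold, after those named above, stood PKD1L1-AS1 at 0.22 (limma adjusted p = 0.0697), CBR1-AS1 at 0.22 (0.0772), LINC01558 at 0.24 (0.0845) and LINC00906 at 0.24 (0.0942). On the lower side SLCO4A1-AS1 gave -0.31 (0.127), GATD1-DT -0.25 (0.138) and LINC00260 -0.25 (0.173).

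MALAT1, the abundant nuclear RNA of splicing speckles, differed between the urolithin A arrays themselves. It read 0.02, -0.08 and 0.19 on the controls and 0.66, -0.02 and 0.66 on the urolithin A arrays. Replicates 1 and 3 lay well above the controls and replicate 2 inside their range, so the change of 0.39 was not called (SE 0.17, limma adjusted p = 0.217). Without urolithin A replicate 2 it was 0.62 with an adjusted p of 0.0119, so that 1 array decides the call. Its 3 probe sets gave 0.05, 0.41 and 0.72, the widest span between probe sets of any of the 100 genes with several, and replicate 2 was the lowest urolithin A array in each.

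Other proteins of nuclear RNA are given beside these. Of 14 paraspeckle proteins measured of 15 listed, MATR3 was called, lower by 0.26 (limma adjusted p = 0.0448), and 11 were below 0; 7.14% were called against 10.2% of all genes. Of 12 measured of 13 factors of lncRNA end processing and nuclear decay, POP1, a subunit of RNase P and RNase MRP, fell by 0.52 (adjusted p = 0.0105) and EXOSC2, an exosome subunit, by 0.29 (adjusted p = 0.0362), or 16.7% called. Of 13 measured of 16 nonsense-mediated decay factors, which remove many SNHG transcripts, 0 were called by limma and 2 had an unadjusted p under 0.05. The latter are 15.4%, against 24.1% of all genes. Among 13 measured of 33 other noncoding RNA genes outside the naming rule, MIR22HG, the host gene of a microRNA, rose by 0.32 (adjusted p = 0.0254), and the middle change was 0.14 with 9 above 0. The called share was 7.69%, and 69.2% were above 0 against 53.1% of all genes. MATR3 lost its call without any 1 of the 6 arrays (highest adjusted p = 0.143), EXOSC2 without any 1 except control replicate 3 (0.116), and MIR22HG without any 1 except control replicate 3 (0.0877), while POP1 kept its call in all 6.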

How the data were processed

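Gene expression was measured on 6 Affymetrix U219 arrays of LNCaP cells, 3 control and 3 urolithin A. Per the submitters' processing notes the deposited log2 values come from RMA, run by the authors; that each probe set is centred on the control median was read from the values. The scanner files were not used here. Probe sets with 1 symbol in the platform annotation were averaged per gene and array (18239 genes), leaving out 93 control and 1327 several-symbol probe sets and 2713 without a symbol. limma 3.58.1 (R 4.3.3; lmFit and eBayes, no covariates, two-sided) was fitted on all genes, with Benjamini-Hochberg adjustment over them and a threshold of 0.05; it was tested on simulated data first. Gene classes, containing genes and promoter sequences came from RefSeq tables (GRCh38.p14); containing genes ignore strand. The genes named are the called noncoding genes, those chosen by name, the 2 largest changes per group, their partners, and called genes of the protein lists; other names were added after their values were seen. The noncoding genes and the lists were chosen with earlier results of these data known.

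Whether equal replicate numbers pair the arrays was checked by the correlation of same-numbered arrays' deviations (0.078, 0.023 and 0.196, not all over 0.1), so they were treated as unpaired. Different-numbered arrays gave -0.143 to 0.073, and these values cannot settle if the arrays are paired. Array number limits precision; 6 arrays give no depth.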

Additional observations from a re-analysis of the deposited data

How the results depend on the processing

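The 8 higher and 5 lower calls became 9 and 8 with the replicate block, the paired fit, which shared 11 of 13 calls. GAS6-AS1 (limma adjusted p = 0.0538) and LINC00303 (0.0621) were lost there. The 6 gained were SNORA10 at 0.00601, SNORD17 at 0.0119, EPB41L4A-AS1 at 0.0241, SMAD5-AS1 at 0.0261, SNORA14B at 0.0352 and ERCC6L2-AS1 at 0.0416. None of these was called with all arrays and no block. Whether same numbers pair the arrays is not settled. The calls became 3 and 3 with only probe sets that carry no suffix of shared sequence (fewer genes tested). They became 1 and 1 with no moderation and 3 and 2 at a threshold of 0.01. With a fold minimum of 1.5 they were 2 and 2, and with every probe set tested alone 5 and 3. Leaving out 1 array at a time gave 3 to 8 higher and 2 to 7 lower. SNORD72, SNORA6, SNORA3A, SLC9A3-AS1 and LIPT2-AS1 were called in all 6 such fits. Of alternatives chosen after seeing the data, leaving out _s_at and _x_at probe sets gave 8 and 3 (10 shared), and leaving out the low-18S array of each group 5 and 6. The median of probe sets, arrays centred on their median, a robust prior and array weights each left all 13 calls. For the 35 named genes, 649 values under alternatives held 0 reversals, 459 on the same side of the threshold, 189 that lost a call and 1 that gained one, MALAT1. For 40 other genes named in the text, 582 values from the fits over genes held 0 reversals, 491 on the same side of the threshold, 75 that lost a call and 16 that gained one. Besides the single-array fits, DKC1 lost its call with the replicate block (0.074) and with array weights (0.0521), SNX5 and MBNL1 with the block (0.0567 and 0.0504), and EIF1AX with arrays centred on their median (0.0595). The cause of lost calls other than fewer arrays or genes was not tested. A filter on low values and a trended prior were not run, since centred values hold no level, and signal over background is unknown.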

Other observations

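A further 47 probe sets list a noncoding symbol of the same kinds beside other genes, and so entered no value above. By limma 0 of the 47 were called, with 8 at an unadjusted p under 0.05 and a smallest adjusted p of 0.0589, against 8.41% of the 49293 probe sets in that fit; 26 of the 47 were below 0. Among them were joint probe sets of snoRNAs and their containing genes. The one listed for SNORA18 and TAF1D, a subunit of the RNA polymerase I promoter factor, read -0.12, 0.00 and 0.39 on the controls and -0.44, -0.48 and -0.20 on the urolithin A arrays (change -0.47, adjusted p = 0.0863). The one listed for SNORA63 and EIF4A2, a translation initiation helicase, gave -0.44 (adjusted p = 0.0858). In both, all 3 urolithin A arrays lay below the controls. The probe set listed for SNORA44 and SNHG12 gave -0.26 (adjusted p = 0.127), beside -0.15 for SNHG12 alone (adjusted p = 0.546).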
